A study of Mus musculus with 8 samples.

Results

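The secreted antagonists of Wnt signaling Dkk1, Dkk2, Dkk3, Sfrp1, Sfrp2, Sfrp4, Frzb and Wif1 were followed in mouse calvarial osteoblastic cells as they differentiated with and without Def6. These 8 genes were taken by symbol from the 24421 genes of the expression tables. Sost, the antagonist made by osteocytes, is not counted among them and is described beside them. Cells came from the calvaria of newborn mice (0 to 3 days old) on the C57BL/6 background, either WT or Def6-/-, the latter lacking Def6 from the germline on and thus in all cell types. RNA was taken at day 0, before induction, or after 12 days in osteogenic medium with ascorbic acid (100 μg/ml) and β-glycerophosphate (10 mM). The 4 groups (WT day 0, WT day 12, Def6-/- day 0 and Def6-/- day 12) have 2 libraries each. The study calls them biological replicates, and how many animals stood behind each library is not given in the sources used here. No sort of the sequenced cells is described, so the cultures may hold cells other than osteoblasts.

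Wnt ligands bind Frizzled receptors together with the co-receptors Lrp5 and Lrp6, which stabilizes β-catenin and drives target genes such as Axin2, and in bone this pathway favors osteoblast differentiation. Secreted antagonists act outside the cell by different routes. The Sfrp proteins and Frzb carry a Frizzled-like domain and bind Wnt ligands, as Wif1 does through a domain of another kind, whereas Dkk1 and Dkk2 bind Lrp5 and Lrp6 and act together with Kremen proteins. Dkk3 is a divergent Dkk family member whose part in Wnt signaling is less settled.

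The values are CPM, read counts scaled to the size of the library, which the authors deposited and which were rescaled here to the reads on genes (normalized CPM). Libraries held between 2414856 and 3482835 reads on genes, so that Dkk1, Sfrp4 and Frzb at day 0 rest on 0 to 8 reads per library. Libraries of a group differed by more than counting noise throughout, and the pair that differed most was WT day 0 (chi-square per gene 31.9, against 4.28 to 11.8 in the other groups). Def6 itself had 112 to 186 reads in the WT libraries and 0 to 2 in the Def6-/- libraries. Differences were tested with limma on log2(normalized CPM + 1) over the 12348 genes with a mean CPM of at least 1 in some group. All 8 antagonists passed this filter, 3 of them (Dkk1, Sfrp4 and Frzb) only through their level at day 12. Because 1 is added before the logarithm, log2 fold changes of genes with few reads are shrunk toward 0.

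In mm10, Sfrp2 lies at chr3:83766321-83774316 on the plus strand and Dkk2 on the same chromosome and strand at chr3:132085292-132180304. The other 6 genes lie at chr8:23411502-23449632 (Sfrp1, plus), chr13:19623104-19632994 (Sfrp4, plus), chr2:80411970-80447625 (Frzb, minus), chr19:30545863-30549665 (Dkk1, minus), chr7:112116017-112159057 (Dkk3, minus) and chr10:121033960-121100650 (Wif1, plus). All are protein-coding. Exons of Sfrp2 overlap those of 1 other annotated gene, which has no row in the tables, and whether the counting used strand is not given in the sources used here. The sequence of the 250 bases before the RefSeq start site (GRCm38.p6, the build of mm10) was found for 5 of the 8 genes: Dkk1, Dkk2, Frzb, Sfrp2 and Wif1. The windows of Sfrp2, the most abundant antagonist at day 12, and of Dkk2, which did not take part in the rise described below, are shown 5′ to 3′ on the plus strand because they end directly before the gene in both annotations used. Capitals mark a TATAAA match.
Sfrp2, chr3:83766071-83766320: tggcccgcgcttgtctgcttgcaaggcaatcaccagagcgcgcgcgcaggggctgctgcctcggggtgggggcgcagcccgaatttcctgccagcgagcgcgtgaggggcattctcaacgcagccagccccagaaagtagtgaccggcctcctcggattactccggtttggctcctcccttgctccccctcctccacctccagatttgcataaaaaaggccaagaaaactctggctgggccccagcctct
Dkk2, chr3:132085042-132085291: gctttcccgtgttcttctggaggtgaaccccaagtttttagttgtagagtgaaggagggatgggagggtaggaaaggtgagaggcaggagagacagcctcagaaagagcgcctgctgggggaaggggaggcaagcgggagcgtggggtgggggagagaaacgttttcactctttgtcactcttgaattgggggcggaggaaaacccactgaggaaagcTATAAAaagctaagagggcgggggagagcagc
TATAAA was found on either strand in 12.4% of the 32851 promoter windows of the same length, and in those of Dkk2, Dkk1 and Wif1. The window of Sfrp2 had 63.6% G and C bases and that of Dkk2 55.6%, against a median of 52.4% over all windows. Of the other motifs searched on both strands, CTTTGAA (a TCF/LEF motif, 4.46% of windows) and TGTGGT (a RUNX motif, 14%) each matched in Dkk1 alone among the 5. CTTTGAT (a TCF/LEF motif, 3.21%), TGANTCA (the AP-1 motif, 6.75%) and the core of the interferon-stimulated response element (2.98%) had no match in these 5 windows. The matches are letters in a window and not measured binding. Part of the Dkk1 window (169 bases), the Frzb window (229 bases) and the Wif1 window (44 bases) falls inside the gene as GENCODE annotates it. The CTTTGAA and TATAAA matches of Dkk1 lie in that part of its window, and its TGTGGT match lies before it.

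Over 12 days in osteogenic medium, 6 of the 8 antagonists rose in WT cells at an adjusted limma p under 0.05 and none fell, where 12.7% of all genes tested rose and 5.63% fell. The Wnt-binding Sfrp1, Sfrp2, Sfrp4 and Frzb were all among them, with Dkk1 and Dkk3. Among the Def6-/- libraries 5 rose and none fell, against 12% and 4.79% of all genes, and Dkk3 was the gene not called. The median log2 fold change of the 8 genes was 2.47 in WT cells, where that of all genes was -0.001. With Def6 missing it was 3.15 from the fit and 3.02 with Dkk1 at its lower bound, where that of all genes was 0.01. Dkk2 and Wif1 passed the adjusted threshold in neither genotype. Both day 12 libraries were above both day 0 libraries for 6 of the 8 in WT cells (29.3% of all genes) and for the same 6 in Def6-/- cells (35.2%). They were below for 2 of the 8 in WT cells (26.6% of all genes) and for none in Def6-/- cells (32.4%). Dkk1, Sfrp4 and Frzb entered the test only through their level at day 12, so their rise in these counts and medians was largely set by the filter. Of the remaining antagonists, Sfrp1, Sfrp2 and Dkk3 were called in WT cells and Sfrp1 and Sfrp2 in Def6-/- cells.

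**Figure D1:**
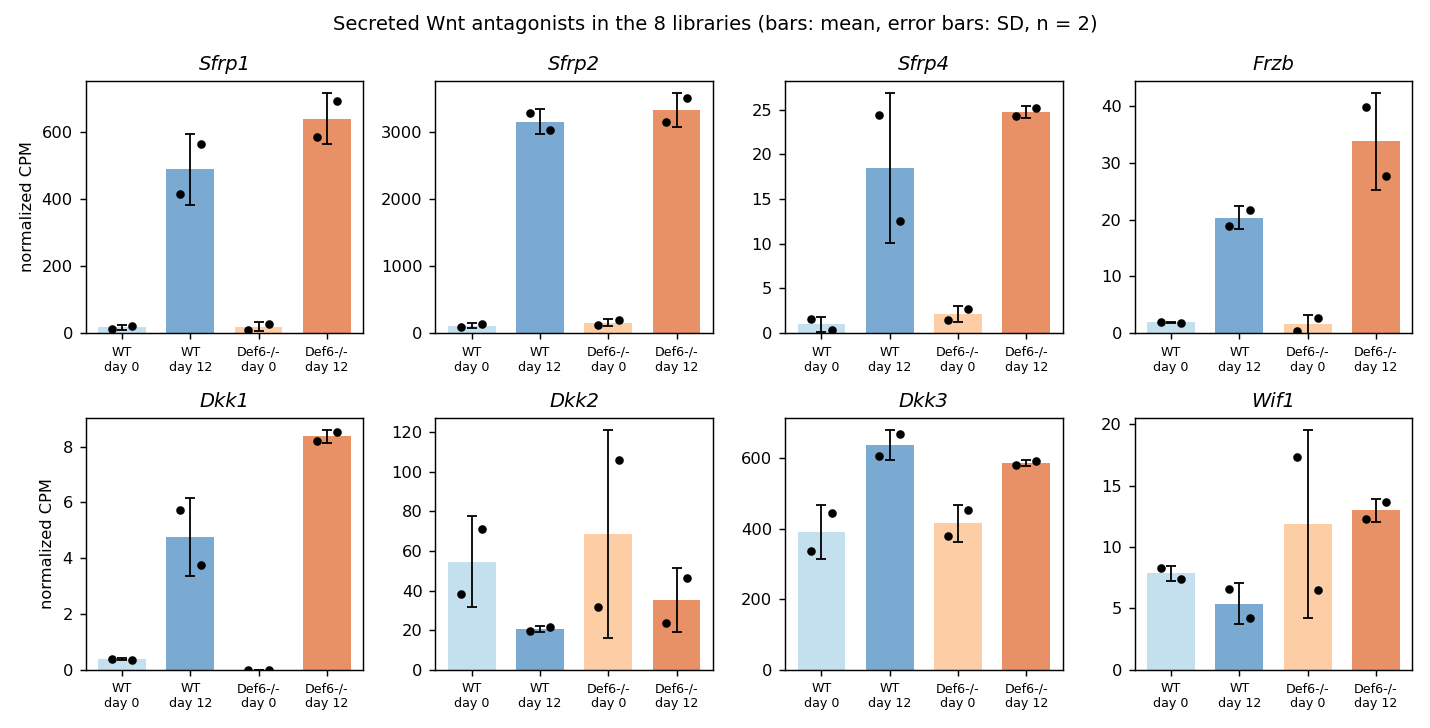
Normalized CPM (linear axis from 0, own scale for each gene) of the 8 secreted Wnt antagonists in WT and Def6-/- cells at day 0 and day 12. Points are single libraries, bars the mean of 2 libraries and error bars the SD. Sfrp1, Sfrp2, Sfrp4, Frzb and Dkk1 are near the axis at day 0 and high at day 12 in both genotypes, whereas Dkk2 and Wif1 are not.

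Sfrp2, which binds Wnt ligands and is made by many mesenchymal cells, stood at 83.3 and 139 normalized CPM in the WT day 0 libraries and rose to 3280 and 3026 by day 12. Def6-/- libraries had 114 and 195 and then 3148 and 3504. All day 12 libraries lay far above all day 0 libraries, and the genotypes were interleaved at both days. The log2 fold change was 4.86 ± 0.30 (SE) in WT cells (limma, adjusted p = 4.75e-05) and 4.47 ± 0.30 in Def6-/- cells (limma, adjusted p = 5.01e-05). On reads, the ratio of day 12 to day 0 was 28.3 in WT cells, with a 95% counting interval of 26.1 to 30.7 that does not cover the spread between cultures, and 21.2 (19.8 to 22.7) in Def6-/- cells.

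Sfrp1, the related antagonist whose loss is known to raise trabecular bone mass in mice, was at 11.8 and 22.3 normalized CPM in WT day 0 libraries and 415 and 565 after 12 days. The Def6-/- libraries held 9.78 and 28.3, then 587 and 695. Again the days did not overlap in either genotype, and the day 0 libraries of a genotype differed more in proportion than those of day 12. Its log2 fold change was 4.81 ± 0.45 (SE) in WT cells (limma, adjusted p = 0.000242) and 5.17 ± 0.45 in Def6-/- cells (limma, adjusted p = 0.000177).

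Sfrp4, the gene mutated in Pyle disease of bone, was rare at day 0, with 4 and 1 reads in the WT libraries and 4 and 8 in the Def6-/- libraries. At day 12 it reached 24.4 and 12.6 normalized CPM in WT cells (85 and 30 reads) and 24.2 and 25.2 in Def6-/- cells (59 reads each). Every day 12 library exceeded every day 0 library, and WT replicate 1 stood with the Def6-/- libraries rather than with WT replicate 2. The log2 fold change was 3.31 ± 0.44 (SE) in WT cells (limma, adjusted p = 0.00127) and 3.07 ± 0.44 in Def6-/- cells (limma, adjusted p = 0.00185). Across the other settings of the processing it ran from 1.94 to 4.34 in WT and from 2.07 to 3.54 in Def6-/- cells.

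Frzb, first described in cartilage, had 5 reads in each WT library and 1 and 8 reads in the Def6-/- libraries at day 0. By day 12 it was at 18.9 and 21.8 normalized CPM in WT cells and 39.8 and 27.8 in Def6-/- cells. At day 12 the Def6-/- libraries both exceeded the WT libraries, and all of these were above day 0. The log2 fold change was 2.89 ± 0.45 (SE) in WT cells (limma, adjusted p = 0.00306) and 3.92 ± 0.45 in Def6-/- cells (limma, adjusted p = 0.000732). Across the other settings of the processing it ran from 1.88 to 3.44 in WT and from 2.57 to 4.85 in Def6-/- cells. Cartilage markers moved in both directions beside it. Their sum was 2429 and 4943 normalized CPM in WT and 4546 and 2865 in Def6-/- libraries at day 0, and between 2847 and 3514 at day 12. Of 10 cartilage markers 8 were tested, with 3 higher and 1 lower at day 12 in WT and 3 higher and 2 lower in Def6-/- cells. Comp (log2 fold changes of 3.94 in WT and 4.12 in Def6-/- cells) and Col9a2 (3.03 and 3.28) rose in each genotype, whereas Col2a1 (-1.50 and -1.86), the most abundant of the markers named here, fell. Their part in the rise of Frzb was not tested.

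Dkk1, the Lrp5 and Lrp6 blocker that is a target of antibodies tested in bone disease, was at the edge of detection at day 0, with 1 read in each WT library and 0 in each Def6-/- library. At day 12 it had 20 and 9 reads in WT cells (5.74 and 3.77 normalized CPM) and 20 reads in each Def6-/- library (8.21 and 8.54 normalized CPM). Its mean per length was the lowest of the 8 genes at day 12 as well, and its Def6-/- libraries lay above the WT libraries. In WT cells the ratio of reads between days was 13.2, with a 95% counting interval of 3.35 to 115, and the fitted change passed the test (log2 fold change 2.05 ± 0.36 SE, limma, adjusted p = 0.00493). Without WT day 12 replicate 1 the adjusted p was 0.0546. Without Def6, Dkk1 was at least 7.79-fold higher at day 12, taking 3 reads per library as the limit that 0 reads allow at day 0 (limma, adjusted p = 0.000561).

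Dkk3 was abundant throughout and changed little by comparison. It was at 336 and 445 normalized CPM in WT day 0 libraries and 606 and 667 after 12 days, and at 378 and 452, then 579 and 592, in Def6-/- cells. The days did not overlap in either genotype. The log2 fold change was 0.72 ± 0.19 (SE) in WT cells (limma, adjusted p = 0.0342) and 0.50 ± 0.19 in Def6-/- cells (limma, adjusted p = 0.120). The WT call was lost, at adjusted p between 0.0616 and 0.215, without any 1 of the libraries WT day 12 replicate 1 or 2 or the 4 Def6-/- libraries, although the log2 fold change then stayed between 0.64 and 0.75. Without WT day 0 replicate 1 or 2 the Def6-/- log2 fold change stayed at 0.50.

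Dkk2, which can block or, where Kremen is lacking, weakly activate Lrp6, went the other way in WT cells, from 38.3 and 71.0 normalized CPM at day 0 to 19.5 and 21.8 at day 12. The Def6-/- libraries were at 31.6 and 106 at day 0 and 23.8 and 46.5 at day 12, so that the days overlapped. The log2 fold change was -1.30 ± 0.54 (SE) in WT cells (limma, adjusted p = 0.137) and -0.78 ± 0.54 in Def6-/- cells (limma, adjusted p = 0.388). Without WT day 0 replicate 1 the WT difference was -1.73, and without Def6-/- day 0 replicate 2 the Def6-/- difference was 0.08. The level at day 0 thus depended strongly on the library.

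Wif1, which sequesters Wnt ligands, was low at both days. WT libraries had 8.29 and 7.42 normalized CPM at day 0 and 6.60 and 4.19 at day 12. Def6-/- libraries had 17.3 and 6.47, then 12.3 and 13.7. Both WT libraries were lower at day 12 than at day 0 and the Def6-/- libraries overlapped between days. The log2 fold change was -0.49 (95% interval -1.46 to 0.47) in WT cells and 0.26 (-0.71 to 1.22) in Def6-/- cells, with adjusted limma p of 0.465 and 0.749. Without Def6-/- day 0 replicate 2 the latter was -0.39.

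**Figure D2:**
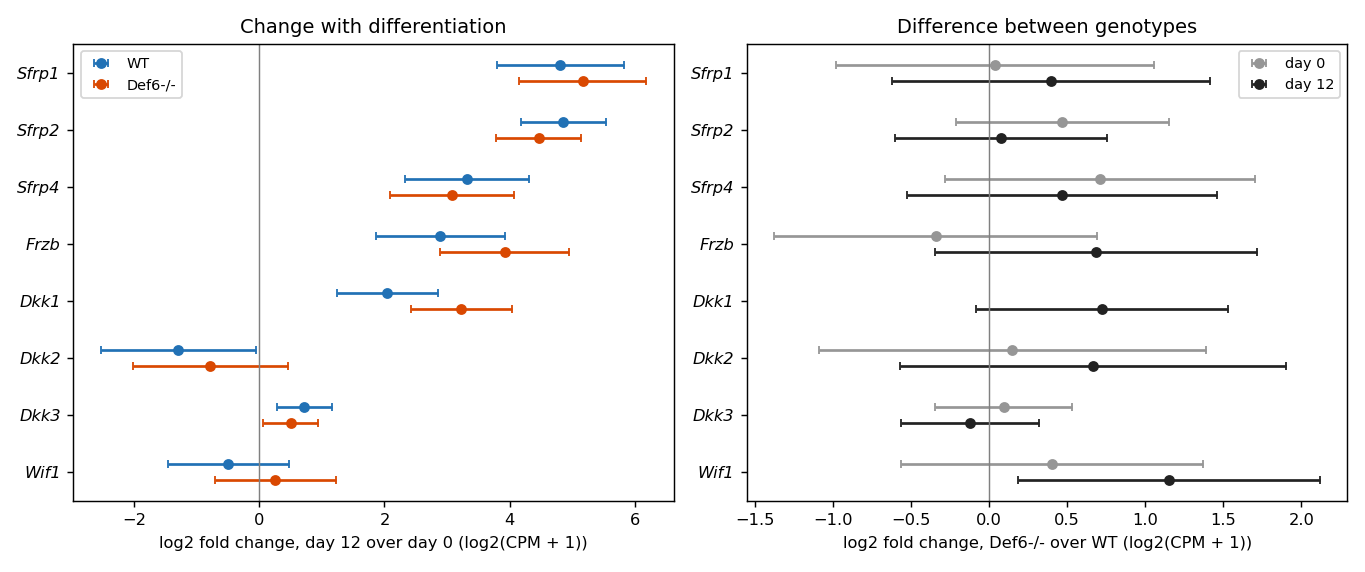
Log2 fold changes of the 8 antagonists with 95% intervals from limma (log2(normalized CPM + 1), 2 libraries per group). Left, day 12 over day 0 in WT and Def6-/- cells, where the intervals of Sfrp1, Sfrp2, Sfrp4, Frzb and Dkk1 lie clear of 0 in both. Those of Dkk3 also leave out 0 in both (lower ends 0.27 in WT and 0.06 in Def6-/- cells). The Dkk2 interval does so in WT cells only (upper end -0.06). Right, Def6-/- over WT at day 0 and day 12, where only the Wif1 interval at day 12 leaves out 0. No day 0 point is drawn for Dkk1, which was at or under 3 reads, and its Def6-/- change at left depends on the pseudocount.

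Per kb of exon the order of the antagonists turned over between days. At day 0 Dkk3 led with 116 ± 22.9 normalized CPM per kb (SD, n = 2) in WT and 123 ± 15.6 in Def6-/- cells, which was 61.0% and 55.1% of the sum of the 8 genes. Sfrp2 came next (27.0% and 32.0%), then Dkk2 (7.74% and 8.28%), and each of these steps was larger than the spread of the libraries. Sfrp1 and Wif1 followed at similar levels whose libraries overlapped in Def6-/- and in WT cells. Below them came Frzb, Sfrp4 and Dkk1, whose order at a few reads per library is only partly resolved, since Sfrp4 overlapped Dkk1 in WT and Frzb in Def6-/- cells.

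At day 12 Sfrp2 led with 1464 ± 83.3 normalized CPM per kb (SD, n = 2) in WT and 1545 ± 117 in Def6-/- cells. That was 82.0% and 81.3% of the sum. Dkk3 made up 10.6% and 9.17% and Sfrp1 6.27% and 7.72%, and these top 3 genes were separate from one another in every library of both genotypes. The other 5 genes shared the remainder, with Frzb and Dkk2 overlapping in both genotypes. Summed over the 8 genes, the level rose from 156 and 225 normalized CPM per kb to 1821 and 1752 in WT cells and from 184 and 264 to 1802 and 1999 in Def6-/- cells. At day 12 the sum was thus mostly Sfrp2.

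**Figure D3:**
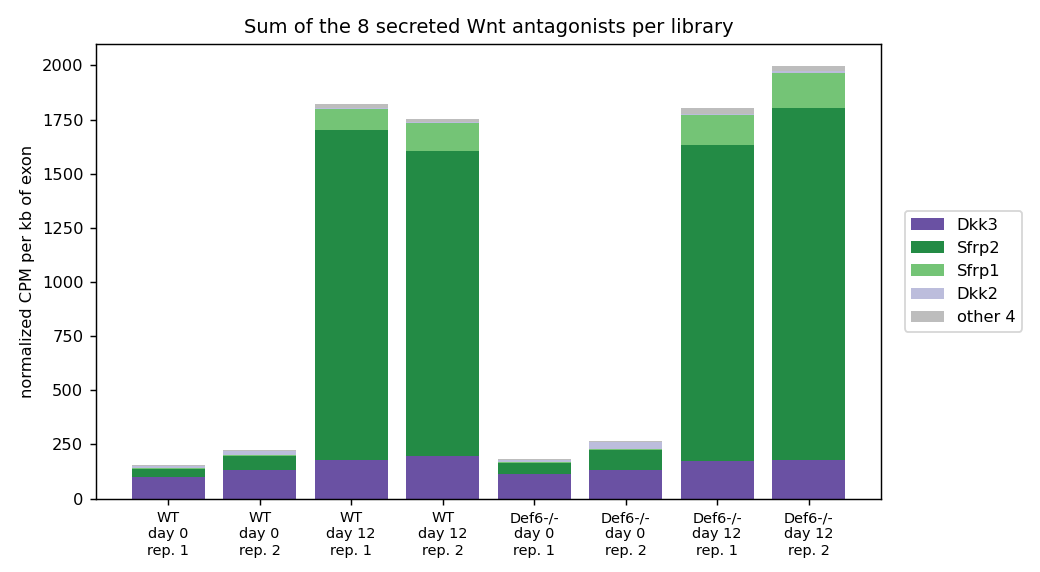
Stacked bars of normalized CPM per kb of exon for the antagonists in each of the 8 libraries, with Dkk1, Sfrp4, Frzb and Wif1 combined as other 4. Day 0 libraries reach 156 to 264, mostly Dkk3, and day 12 libraries 1752 to 1999, mostly Sfrp2, in both genotypes.

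Between genotypes at day 0, none of the 8 antagonists differed at an adjusted p under 0.05, by limma, edgeR or DESeq2, and none had an unadjusted p under 0.05 by any of the 3. Of all genes, 0% were higher and 0.00810% lower by the adjusted limma p. By the looser rule that the study used, an unadjusted p under 0.05 and a change over 1.2-fold, none of the 8 differed either, where 0.988% of all genes were higher and 1.31% lower. The median log2 difference of the 7 genes other than Dkk1 was 0.15, where that of all genes was -0.02. Dkk1 had 2 reads in all in WT and 0 in Def6-/- cells, so no fold is given, and it was the only gene of the 8 whose libraries did not overlap (10.9% of all genes had no overlap with Def6-/- higher and 11.7% with Def6-/- lower). The intervals were wide. For Sfrp2 the log2 difference was 0.47 with a 95% interval of -0.21 to 1.15, and for Sfrp1 it was 0.04 with an interval of -0.98 to 1.06. With 1 library left out, the Sfrp2 difference ran from 0.09 to 0.85, and leaving out a library of either day 0 pair moved it. For Sfrp2 the result depended as follows on which library of the WT day 0 pair was kept. Without replicate 2 it was 0.84 higher on the log2 scale in Def6-/- cells (limma, adjusted p = 0.028), and 23.6% of all genes then passed. Without replicate 1 the difference was 0.11 (limma, adjusted p = 0.984).

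At day 12 none of the antagonists passed the adjusted threshold between genotypes by limma, edgeR or DESeq2, as 0% of all genes were higher and 0.00810% lower by limma. The Def6-/- pair nevertheless lay above the WT pair for 5 of the 8 (Dkk1, Dkk2, Sfrp1, Frzb and Wif1) and below it for 1 (Dkk3), while Sfrp2 and Sfrp4 overlapped. Among all genes 16.8% had no overlap with Def6-/- higher and 15.9% with Def6-/- lower. The median log2 difference of the 8 genes was 0.57, where that of all genes was -0.0005. By the study's rule, 1 of the 8 (Wif1) was higher, where 0.810% of all genes were higher and 0.591% lower.

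Wif1 averaged 5.39 ± 1.71 normalized CPM (SD, n = 2) at day 12 in WT cells and 13.0 ± 0.95 in Def6-/- cells. The log2 difference was 1.15 with a 95% interval of 0.19 to 2.12. Its unadjusted p was 0.0245 in limma's fit across all genes, 0.0314 by edgeR and 0.0372 by DESeq2, and the limma p adjusted over all genes was 1. The libraries rest on 23 and 10 WT reads and 30 and 32 Def6-/- reads. Leaving out WT replicate 2 moved the limma difference to 0.88 and its unadjusted p to 0.145, and the p was 0.0662 without Def6-/- replicate 1 and 0.096 without Def6-/- replicate 2 at that day. At day 0 the difference was 0.40 (-0.56 to 1.37), with 1 Def6-/- library above and 1 below both WT libraries.

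The other log2 differences at day 12 were 0.73 for Dkk1 (95% interval -0.08 to 1.53), 0.68 for Frzb (-0.35 to 1.72), 0.67 for Dkk2 (-0.57 to 1.91), 0.47 for Sfrp4 (-0.52 to 1.46) and 0.40 for Sfrp1 (-0.62 to 1.42). For the most abundant genes they were small, at 0.08 for Sfrp2 (-0.60 to 0.76) and -0.12 for Dkk3 (-0.56 to 0.32). Each of these 7 intervals holds 0. With only the 4 day 12 libraries in the fit, Dkk2, Frzb and Sfrp1 joined Wif1 under the study's rule. The share of all genes under that rule was not counted for this fit, so no background stands beside these calls. None of the 8 passed after adjustment in it, where 0.0248% of all genes did.

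Whether the change over 12 days differed between genotypes was tested as an interaction. No antagonist passed the adjusted threshold by limma, edgeR or DESeq2, and 0% of all genes did in limma. Without adjustment 1 of the 8 had a p under 0.05 by limma and by edgeR and 0 by DESeq2. This was Dkk1, at 1.18 on the log2 scale, with an unadjusted p of 0.0437 in the fit across all genes. By the study's rule 0.705% of all genes were higher and 0.421% lower. Dkk1 was at or under 1 read per library at day 0, and its fitted interaction ran from 0.57 with a pseudocount of 5 to 3.96 by edgeR, with an unadjusted p of 0.109 by DESeq2. Leaving out any single library but WT day 12 replicate 1 took its limma p above 0.05, to between 0.0723 and 0.117. For Sfrp2 the interaction was -0.39 (95% interval -1.36 to 0.57) and for Frzb 1.03 (-0.43 to 2.49).

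Dkk2, Sfrp1 and Sfrp2 differed more between the 2 libraries of a day 0 group than between the genotype means of that day. The ratio of replicate 2 to replicate 1 at day 0 was 1.86 in WT and 3.35 in Def6-/- cells for Dkk2, 1.88 and 2.89 for Sfrp1, and 1.66 and 1.70 for Sfrp2. Replicate 2 was thus higher in both genotypes for these 3 genes. For Wif1 it was lower in both, at 0.895 and 0.374. The summed level of 8 proliferation markers, among them Mki67 and Top2a, also differed between these libraries, at 268 normalized CPM in replicate 1 and 627 in replicate 2 of WT day 0, and at 292 and 478 for Def6-/- day 0. Between days 2 of the 8 fell in WT cells (Mcm5 and Pcna) and 1 in Def6-/- cells (Mcm5), by adjusted limma p under 0.05. Its part in the spread of the antagonists was not tested.

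**Figure D4:**
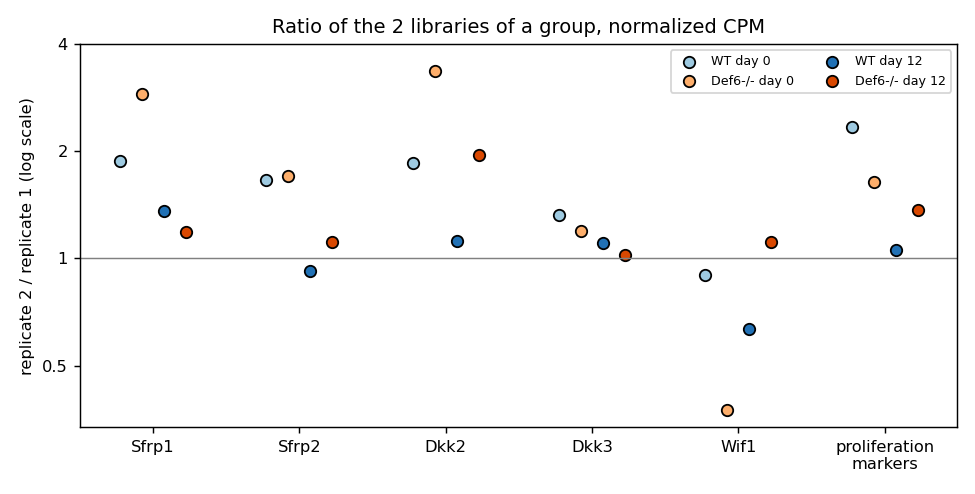
Ratio of replicate 2 to replicate 1 in normalized CPM (log axis) for 5 antagonists and for the sum of the proliferation markers, 1 point per group. At day 0 the ratios of Sfrp1, Sfrp2, Dkk2 and the proliferation markers all exceed 1.6 in both genotypes, and those of Wif1 lie below 1.

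Of 10 osteoblast markers, 8 had reads in every day 0 library, among them Runx2, Sp7, Alpl and Col1a1. Bglap, which encodes osteocalcin, had no reads in any day 0 library and between 18 and 46 at day 12, and Dmp1 had between 0 and 8 at day 0. All 10 were tested, and their sum was between 28973 and 43532 normalized CPM at day 0 and between 81647 and 115920 at day 12. In each genotype 6 of 10 were higher at day 12 (limma, adjusted p under 0.05), against 12.7% of all genes in WT and 12% in Def6-/- cells. Bglap, Dmp1 and Phex, among these 6, passed the filter only through their level at day 12. Their part of this count was largely set by the filter. Markers of other cells moved as well. Of 12 macrophage markers, 11 were tested and all 11 rose in each genotype. Their sum went from 399 and 232 normalized CPM to 6252 and 3133 in WT and from 176 and 284 to 3897 and 3381 in Def6-/- cells. At day 12 WT replicate 1 had both the higher macrophage sum and the higher Sfrp4 level of the WT pair, while the Def6-/- libraries, with macrophage sums nearer to that of WT replicate 2, had Sfrp4 at 24.2 and 25.2, near the 24.4 of WT replicate 1. The 8 adipocyte markers summed to 36.9 to 47.0 at day 0. At day 12 they summed to 311 and 334 in WT and 427 and 439 in Def6-/- cells. Lpl alone gave 278 and 297 of these WT sums and 368 and 355 of the Def6-/- sums. By the study's rule 4 of the 6 tested were higher with Def6-/- at day 12, where 0.810% of all genes were. Adipoq and Cfd, among these 4, passed the filter only through their level in Def6-/- cells at day 12. Their part of this count was therefore largely set by the filter. None passed after adjustment, and Pparg was not higher (log2 difference -0.13). As with this sum, the Def6-/- pair lay above the WT pair at day 12 for Dkk1, Dkk2, Sfrp1, Frzb and Wif1. It did not for Dkk3, Sfrp2 and Sfrp4. Endothelial markers summed to 4.14 to 5.45 at day 0 and to 11.5 to 14.4 at day 12, with Emcn at 0 in all libraries. Of these 6 genes Tek alone was tested, with log2 fold changes of 2.0 in WT (limma, adjusted p = 0.0303) and 1.62 in Def6-/- cells (limma, adjusted p = 0.0704). Tek too passed the filter only through its level at day 12. The part of these cells in the changes of the antagonists was not tested, and in bulk RNA a different number of cells of a type cannot be told apart from a different amount of RNA per cell.

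For each antagonist with a mean of at least 5 normalized CPM, the genes with the most similar profile were found by the root mean square (RMS) difference of log2 levels, centred per gene, over the 8 libraries. This describes the profiles and carries no test. The closest match of all was Aplp2 to Dkk3 (RMS 0.02), at 317 and 420 normalized CPM in WT day 0 and 580 and 619 in WT day 12 libraries. Slfn5 was nearest to Sfrp2 (RMS 0.21), followed by Dpt, and Rbpjl to Sfrp1 (RMS 0.29), followed by Chrdl1. Among the antagonists themselves, Sfrp1 and Sfrp2 were each other's nearest (RMS 0.34). Ms4a6d was nearest to Sfrp4 (RMS 0.29), then Gsta3, and Ms4a6d showed the same gap between WT day 12 libraries, at 52.8 and 22.6 normalized CPM. Frzb was nearest to As3mt (RMS 0.30) and then to Cpz, Dkk2 to Slitrk5 (0.30) and Chek1, and Wif1 to Clk2 (0.22) and Ano1. Chek1, a cell cycle checkpoint kinase, shared with Dkk2 the higher level of replicate 2 at day 0, at 5.52 against 9.89 normalized CPM in WT cells.

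Other genes of the pathway changed in both directions over 12 days. Of 12 other secreted or membrane inhibitors, 8 were tested, and in WT cells 2 rose (Draxin and Igfbp4) and 1 fell, Notum, an enzyme that strips the lipid from Wnt ligands (log2 fold change -1.58, limma, adjusted p = 0.0408). Igfbp4 had the smallest p of those that rose (log2 fold change 1.56, limma, adjusted p = 0.00126). When Def6 was missing, Bambi, Igfbp4 and Sost rose and none fell, with Notum at -1.12 (limma, adjusted p = 0.131). Sost had no reads at day 0 in any library, 2 and 0 reads in WT and 14 and 12 reads in Def6-/- cells at day 12, a ratio of depth-scaled reads between genotypes of 16.0 with a 95% counting interval of 4.0 to 139. This difference at day 12 had an unadjusted limma p of 0.000293 and an adjusted p of 1, and its interaction had an unadjusted p of 0.00287 and an adjusted p of 0.9998, so that Sost passed the study's rule in both and the adjusted threshold in neither. Sost passed the filter only through its level in Def6-/- cells at day 12. Its rise without Def6 and these unadjusted p were therefore largely set by the filter. Sostdc1 averaged 6.46 ± 3.14 normalized CPM (SD, n = 2) before and 4.47 ± 0.99 after differentiation of WT cells. Sfrp5 had at most 1 read in any library, and Dkk4 and Kremen2 none.

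Of 19 Wnt ligands 9 were tested. Wnt16, Wnt5b and Wnt7b rose and Wnt2 and Wnt9a fell in each genotype, with log2 fold changes of 3.11 for Wnt16 (limma, adjusted p = 0.00167) and -1.96 for Wnt9a (limma, adjusted p = 0.0012) in WT cells. Of 27 receptors, co-receptors and genes of the R-spondin axis, 23 were tested, with 9 higher and 4 lower in WT cells and 8 higher and 2 lower in Def6-/- cells. Rspo2, a ligand that amplifies Wnt signals, and the receptor Fzd6 had the smallest p among those that rose and fell in WT cells. Rspo2 changed by 4.06 on the log2 scale in WT (limma, adjusted p = 0.000308) and by 3.68 in Def6-/- cells (limma, adjusted p = 0.00053), and Fzd6 by -1.55 (limma, adjusted p = 0.00631) and -1.29 (limma, adjusted p = 0.0155). The binding partners of the Dkk proteins did not pass the adjusted limma test in either genotype. Lrp5 had log2 fold changes of 0.64 (95% interval 0.15 to 1.13) in WT and 0.48 (-0.01 to 0.97) in Def6-/- cells, Lrp6 of 0.63 and 0.13, Lrp4 of 0.27 and 0.01, and Kremen1 of 0.12 and -0.02.

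Of 14 canonical Wnt targets in the tables, 11 were tested, and 5 rose and 1 fell in WT cells while 3 rose and none fell in Def6-/- cells. Lgr5 and Notum, which had the smallest p in either direction in WT cells, also stand in the lists above. Lgr5, a receptor for R-spondins, changed by 4.22 on the log2 scale in WT (limma, adjusted p = 0.000461) and 3.69 in Def6-/- cells (limma, adjusted p = 0.000895). Axin2, the feedback inhibitor read most often as a measure of the pathway, averaged 9.73 ± 3.72 normalized CPM (SD, n = 2) before and 10.1 ± 0.70 after differentiation of WT cells, and 9.86 ± 0.95 and 10.0 ± 2.09 in Def6-/- cells. Its log2 fold change was 0.09 (95% interval -0.64 to 0.83) and 0.01 (-0.72 to 0.74). Tcf7, a transcription factor of the pathway, rose by 1.26 in WT (limma, adjusted p = 0.0205) and by 2.32 in Def6-/- cells (limma, adjusted p = 0.00116). At day 12 it was at 11.2 ± 1.98 normalized CPM in WT and 24.8 ± 5.53 in Def6-/- cells, with an adjusted limma p of 1 for that difference. Nkd2 rose in WT cells by 0.92 (limma, adjusted p = 0.038) and was at 0.50 in Def6-/- cells (limma, adjusted p = 0.233). Lef1 had at most 11 reads in any library and did not pass the filter.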

How the data were processed

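Per the labels and the study's methods, the authors selected poly-A RNA, trimmed reads with fastp, used HISAT2 for alignment to mm10 and HTSeq for counting, and deposited CPM from edgeR. Versions, annotation and strand setting are not given in the sources used here. Deposited CPM are relative to all reads. Reads on genes were 28.8% to 35.3% of these. Whole reads (within 0.01) were recovered for 99.957% of 114821 positive values, including all values of the antagonists. An edgeR test of these reads was run as an alternative only.

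CPM were rescaled to reads on genes with TMM factors and tested with limma 3.58.1 (lmFit, eBayes with trend, R 4.3.3) on log2(CPM + 1), with the means of the 4 groups fitted jointly to the 8 libraries and Benjamini-Hochberg adjustment over 12348 genes. Genes under 1 CPM on average in every group were left out. Alternatives were edgeR 4.0.16 (quasi-likelihood) and DESeq2 1.42.0 on recovered reads, deposited CPM, DESeq2 size factors, pseudocounts of 0.1 and 5, no filter, the compared libraries only, a replicate block and leaving out each library. The scripts were tested on simulated data. Gene annotation was GENCODE vM21 and exon length the merged exons. The named genes were the 8 antagonists, chosen co-receptors, inhibitors and targets, the smallest p per list and direction in WT cells, and the 2 nearest profiles. The antagonists and all lists were chosen with earlier results of these data known. Counting intervals and limits for 0 reads cover counting error only, at 95% and 3 reads. With 2 libraries against 2 an exact permutation test cannot go below p = 0.333, so it was not used.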

Additional observations from a re-analysis of the deposited data

How the results depend on the processing

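The number of antagonists called between days was 6 in WT cells and ranged from 5 to 7 under the other settings and from 4 to 7 with 1 library left out (4 without WT day 12 replicate 1). In Def6-/- cells it was 5, and 5 to 6 under both kinds of alternative. Sfrp1, Sfrp2, Sfrp4 and Frzb were called in both genotypes under all 17 alternatives. Dkk1, Sfrp4 and Frzb passed the filter only through their level at day 12. For them these counts and calls were largely set by the filter wherever it was kept. Where 1 library was left out, the lone library of its group was assumed to vary like the others.

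The WT call of Dkk3 was lost with deposited CPM (limma, adjusted p = 0.12) and with only the compared libraries (limma, adjusted p = 0.165). In the latter setting 8.99% of all genes were called in WT cells, against 18.3% in the main fit. Its Def6-/- change was called in that setting (limma, adjusted p = 0.0163), where 32.1% of all genes were called, against 16.8% in the main fit. The WT decrease of Dkk2 was called by DESeq2 (adjusted p = 0.037). The labels do not say whether libraries with the same replicate number share an origin. Their deviations from the group means correlated at 0.33 between the day 0 groups and between 0.0023 and 0.15 in the other pairs of groups. With the replicate block, 7 antagonists were called in WT cells and 5 in Def6-/- cells, against 20.7% and 18.5% of all genes. In the main fit these shares of all genes were 18.3% and 16.8%. Dkk2 was added in WT cells (log2 fold change -1.30, limma, adjusted p = 0.0258). With the block 0 antagonists were called in every comparison that involves genotype, and no other call changed.

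Between genotypes at day 0 the number called was 0, and 0 to 1 with 1 library left out. It was 0 under every alternative at day 12 and for the interaction. Under the study's rule, Dkk1 joined Wif1 at day 12 with deposited CPM and with no filter, and Dkk1 and Frzb did with a pseudocount of 5. The share of all genes under that rule was not counted for these settings. The interaction of Sfrp4, -0.24, was 0.04 with deposited CPM and 0.13 with a pseudocount of 5, and -0.71 to 0.23 with 1 library left out. Other values that changed sign with 1 library left out were the Def6-/- change of Dkk2 (-1.64 to 0.08) and Wif1 (-0.39 to 0.90), the day 0 difference of Dkk2 (-0.71 to 1.01), Dkk3 (-0.10 to 0.30), Frzb (-1.06 to 0.38), Sfrp1 (-0.68 to 0.76) and Wif1 (-0.24 to 1.05), the day 12 difference of Sfrp2 (-0.0027 to 0.15), and the interaction of Dkk2 (-0.34 to 1.38) and Sfrp1 (-0.36 to 1.08). None of these was called with all 8 libraries. The cause was not tested. Over all genes, the WT comparison between days called 2260 genes, 1086 with only the compared libraries and 835 to 5706 with 1 library left out. The Def6-/- comparison called 2076, 3913 and 927 to 4314. Between genotypes 1 gene was called at each day. This was 2926 at day 0 without WT day 0 replicate 2, when the interaction called 1273 genes in place of 0, and at most 3 at day 12 under any setting. Deposited CPM moved the median of all genes between genotypes at day 0 from -0.02 to 0.10. Depth limits Dkk1, Sfrp4 and Frzb at day 0, where differences of a few reads could not be seen.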
